A study of Mus musculus with 9 samples.

Results

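A set of 8 genes encoding immune checkpoint ligands was followed through the RNA sequencing of SB28 glioma cells grown in mouse brain. The 8 genes were chosen by name, by a rule that uses no measured value though earlier results of these data were known, from the 24421 rows of the table of counts: *Cd274* (PD-L1), *Pdcd1lg2* (PD-L2), *Cd80*, *Cd86*, *Cd276* (B7-H3), *Pvr* (CD155), *Nt5e* (CD73) and *Cd47*. All 8 had a row of their own. The study asked whether BAL101553, a prodrug given by mouth that acts on microtubules and the spindle assembly checkpoint, alters SB28 tumors and their dealings with the immune system. SB28 is a mouse glioma cell line carrying GFP and luciferase, and it was implanted in the brains of C57BL/6 mice aged 6 to 8 weeks. The table holds 9 libraries in 3 groups of 3, namely control (vehicle-treated mice, SB28 cells), BAL101553 (mice gavaged with the drug, SB28 cells) and astrocytes (cells labelled astrocytes, with the treatment label BAL101553). The control and BAL101553 groups thus differ in treatment, and the astrocyte and BAL101553 groups share the treatment label and differ in cell type. The study's text does not describe the astrocyte libraries, and it gives 2 ex vivo samples per group where the table holds 3. It also cites a different deposit for its sequencing, so its account of the mice, sort and harvest may not cover every library here. According to the Methods, SB28 cells were sorted as GFP-positive cells negative for CD45 and CD11b, while the labels call the source whole tissue. Treated tumors were harvested on a later day than control tumors, so drug and time of growth cannot be told apart.

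Checkpoint ligands are surface proteins through which a cell restrains, or in some pairings stimulates, lymphocytes and phagocytes. PD-L1 and PD-L2 bind PD-1 on T cells. CD80 and CD86 bind CD28, which stimulates T cells, and CTLA-4, which restrains them. B7-H3 belongs to the same B7 family, CD155 binds TIGIT, CD96 and CD226, and CD73 is an enzyme that makes extracellular adenosine from AMP. CD47 binds SIRPα on macrophages and restrains phagocytosis. In glioma these ligands are of interest because tumor cells and brain myeloid cells can both carry them.

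Total counts per library lay between 22919523 and 34013875, and every pair of libraries within a group differed by more than sampling noise. Nothing in the labels says that libraries of a group came from separate mice, so p-values measure the spread between these libraries, which may be technical. Levels are given as CPM (counts scaled to a common library size), with TMM scaling over the 9 libraries. A limit of 3 counts corresponded to between 0.0884 and 0.135 CPM in a library. The summed level of 8 astrocyte markers lay between 11999 and 14749 CPM in the libraries labelled astrocytes, against 681 to 972 CPM in the 6 SB28 libraries. Most of the SB28 sum was *Gja1* alone, at 888 to 928 CPM in control and 650 to 746 CPM in BAL101553 libraries. The libraries labelled astrocytes also held oligodendrocyte transcripts, at a sum of 10282 to 12723 CPM over 6 genes. Their microglia and macrophage transcripts had a sum of 475 to 1027 CPM over 12 genes. In the SB28 libraries the same 12 microglia and macrophage genes summed to between 5.10 and 11.3 CPM. *Ptprc*, which encodes CD45, a protein the sort selected against, had 2 to 8 reads in each SB28 library. All values are for bulk RNA, in which fewer cells of a type and less RNA per cell cannot be told apart.

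The members lie on 4 chromosomes (positions on GRCm38, GENCODE vM21). *Cd274* (chromosome 19, 29367455 to 29388095) and *Pdcd1lg2* (chromosome 19, 29410919 to 29471161) are neighbors on the plus strand with 22823 bases between them. *Cd80* (chromosome 16, 38455561 to 38496335, plus strand), *Cd86* (chromosome 16, 36603869 to 36666081, minus strand) and *Cd47* (chromosome 16, 49800533 to 49915010, plus strand) share a chromosome. *Cd276* (chromosome 9, 58524298 to 58555437, minus strand) and *Nt5e* (chromosome 9, 88327197 to 88372092, plus strand) share another, and *Pvr* is on chromosome 7 (19903578 to 19921160, minus strand). Annotated genes overlap 4 members, namely an antisense RNA for *Cd274*, *A930007I19Rik* (antisense) for *Pdcd1lg2*, *Gm10657* for *Cd276*, and a pseudogene and an antisense RNA for *Pvr*. The strand setting of the counting is not given in the sources used here, so reads of these overlaps may be split between genes or shared. Of the overlapping genes, *A930007I19Rik* alone had a row under its name. It had 0 to 16 reads in a library, beside 0 to 12 reads of *Pdcd1lg2*.

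Promoter sequences are shown for the neighboring pair *Cd274* and *Pdcd1lg2*, which stand at different levels in every library, and for *Cd276*, the member with the highest level per length in SB28 cells. Each is the 250 bases before the annotated start, 5′ to 3′ on the gene's strand, from RefSeq on GRCm38.p6. They come from chr19:29367188-29367437 (plus), chr19:29410669-29410918 (plus) and chr9:58555034-58555283 (minus). Capitals mark matches, on either strand, to the letters GGGCGG (GC box) or GAAANNGAA (shortened from the IRF motif).
Cd274: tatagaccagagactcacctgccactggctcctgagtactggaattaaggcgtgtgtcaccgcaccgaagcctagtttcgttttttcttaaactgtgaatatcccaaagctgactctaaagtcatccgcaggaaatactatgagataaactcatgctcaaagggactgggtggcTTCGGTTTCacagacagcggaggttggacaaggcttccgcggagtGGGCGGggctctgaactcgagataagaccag
Pdcd1lg2: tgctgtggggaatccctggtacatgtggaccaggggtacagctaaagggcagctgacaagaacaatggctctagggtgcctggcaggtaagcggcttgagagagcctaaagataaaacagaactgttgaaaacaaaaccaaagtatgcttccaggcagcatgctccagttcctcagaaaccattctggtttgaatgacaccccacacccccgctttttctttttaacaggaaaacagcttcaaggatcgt
Cd276: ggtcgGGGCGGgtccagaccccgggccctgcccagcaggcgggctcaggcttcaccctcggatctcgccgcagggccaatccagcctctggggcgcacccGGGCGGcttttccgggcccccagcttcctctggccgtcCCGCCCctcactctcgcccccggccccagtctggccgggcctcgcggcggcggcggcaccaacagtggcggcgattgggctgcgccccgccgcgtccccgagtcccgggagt
The *Cd274* window held 1 GC box match, 31 to 26 bases before the start, and 1 IRF match, TTCGGTTTC, 76 to 68 bases before it on the minus strand. The IRF letters were found in 7.13% and the GC box letters in 32.7% of 32851 RefSeq mouse promoters of this length. With one more A at its end the IRF motif had no match in any member's window, and was found in 2.98% of the promoters. Neither TTCNNNGAA (GAS, 7.02% of promoters) nor TATAAA (12.4%) matched in the 3 windows. In *Pdcd1lg2* none of these letters matched, and its window held 3 CpG at 48.4% GC. The *Cd276* window held 3 GC box matches and 29 CpG at 77.6% GC, against 11 CpG at 50.4% GC for *Cd274* and a median of 6 CpG and 52.4% GC over all promoters. *Cd80*, with 3 CpG, was close to *Pdcd1lg2*. *Nt5e* (21 CpG) and the 2 starts of *Cd47* (30 and 31 CpG) were close to *Cd276*. A match of letters is a description of the sequence and was not tested as a binding site. The RefSeq starts of *Cd276*, *Cd80*, *Nt5e* and *Cd47* lie inside the GENCODE spans given above, so these windows fall within those genes. *Cd86* and *Pvr* had no entry.

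In SB28 cells the 8 ligands spanned a wide range of levels, from 38.4 CPM per kb of exon down to 0 reads. Per length, the control mean was 38.4 CPM per kb for *Cd276* and 33.3 for *Pvr*, whose libraries overlapped. *Cd47* (9.01 CPM per kb) and *Nt5e* (7.42) followed and overlapped each other. The remaining members stood apart from their neighbors in this order, at 1.38 CPM per kb for *Cd274*, 0.595 for *Cd80*, 0.121 for *Pdcd1lg2* and 0.00409 for *Cd86*. The BAL101553 libraries kept this order, at 31.3 CPM per kb for *Cd276*, 24.4 for *Pvr*, 11.1 for *Cd47*, 6.67 for *Nt5e*, 2.0 for *Cd274*, 1.01 for *Cd80*, 0.118 for *Pdcd1lg2* and 0 for *Cd86*. There, of the neighbors in the order, *Cd274* and *Cd80* alone overlapped. So B7-H3 and CD155 transcripts led in both SB28 groups, and the PD-1 ligands and the classical B7 genes were at the foot.

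**Figure D1:**
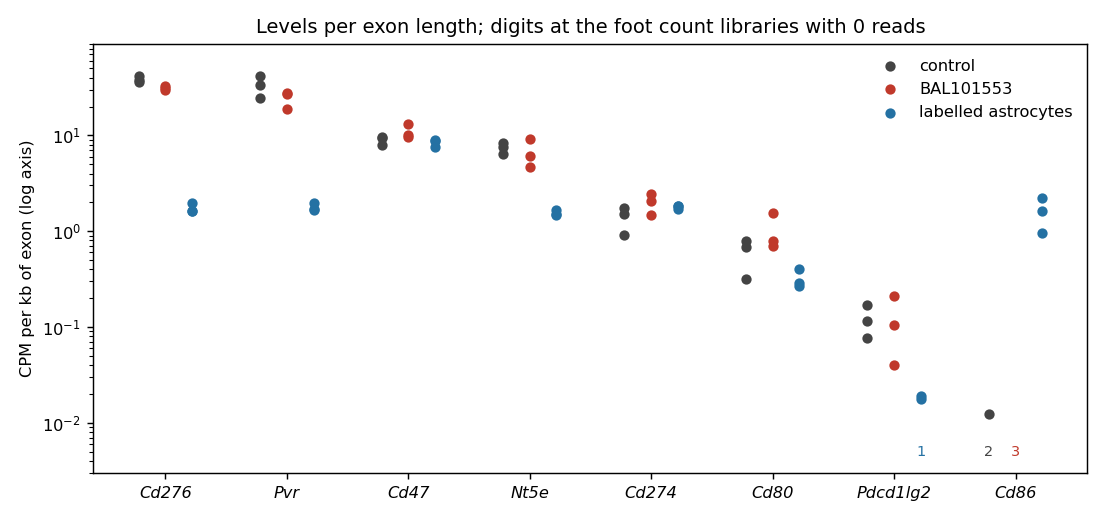
Level of each member per length of exon (CPM per kb, log axis) in the 9 libraries, with control, BAL101553 and astrocyte libraries in separate colors, and digits at the foot counting libraries with 0 reads. *Cd276* and *Pvr* head the SB28 libraries at group means of 24.4 to 38.4 CPM per kb, and *Cd47* heads the astrocyte libraries at 8.41.

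The order in the libraries labelled astrocytes was another. *Cd47* led at 8.41 CPM per kb, and 5 members lay together with overlapping neighbors, *Pvr* at 1.79, *Cd274* at 1.78, *Cd276* at 1.74, *Cd86* at 1.61 and *Nt5e* at 1.56 CPM per kb. *Cd80* (0.317) and *Pdcd1lg2* (0.0123) were below them. *Cd47* and *Cd274* thus had the closest means over the 3 groups, whereas those of *Cd86*, *Cd276* and *Pvr* lay farthest apart.

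**Figure D2:**
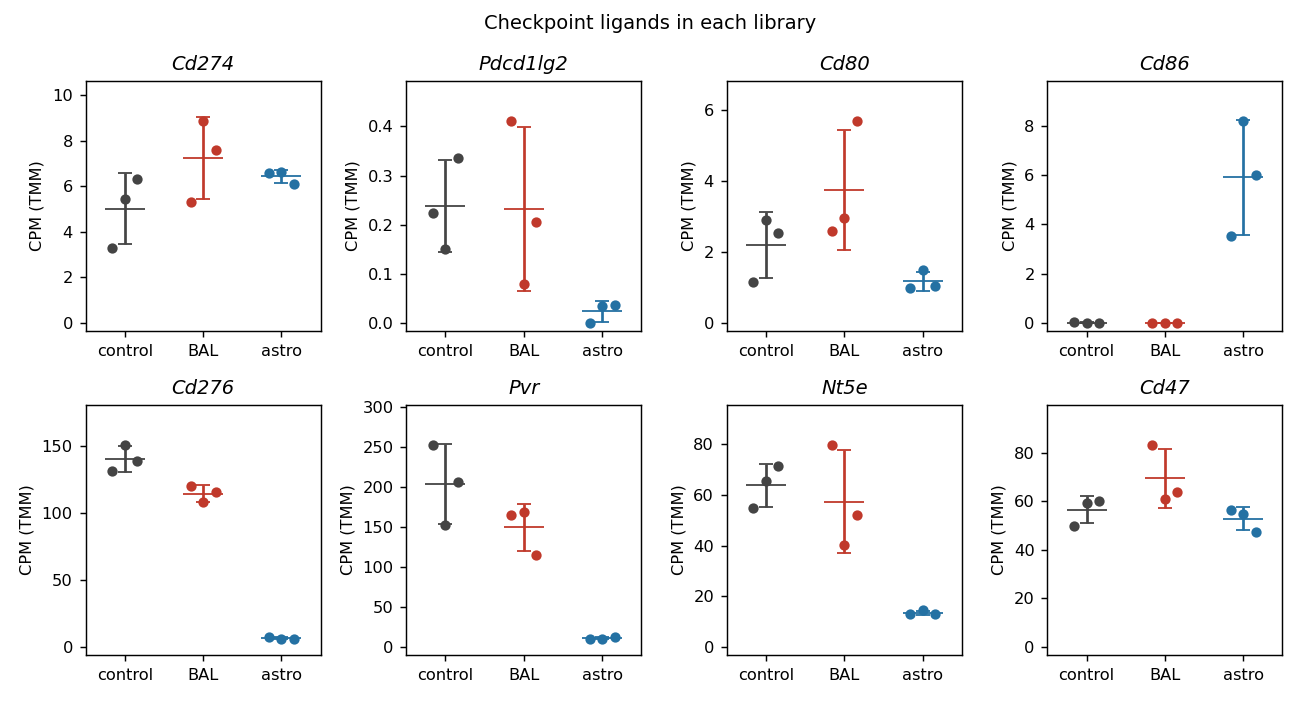
CPM of each of the 8 members in every library (points), with the mean ± SD of 3 libraries per group (bars), in 1 panel per gene with its own linear axis. Control and BAL101553 points interleave in 6 panels and are apart for *Cd276*, which is lower after BAL101553, and *Cd47*, which is higher. The astrocyte points for *Cd276* lie between 5.93 and 7.21 CPM, below all SB28 points, and those for *Cd86* between 3.54 and 8.17 CPM, above them.

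The first comparison asked whether the ligands differ between SB28 cells from BAL101553-treated and control mice. No member passed the test, and 6 of the 8 had counts high enough to enter it. Over all genes, 1860 of 12633 (14.7%) were called, that is, passed edgeR's quasi-likelihood test at a Benjamini-Hochberg adjusted p under 0.05, 1091 higher and 769 lower after BAL101553. With library totals in place of TMM, 77.4% of the calls were higher, against 58.7% here. The count fell to 193 without control 3, to 458 without control 1, to 668 without BAL101553 3, to 1133 without BAL101553 1 and was 1260 without control 2. An unadjusted p under 0.05 was found for 1 of the 6 members, against 34.1% of all genes tested. The groups did not overlap for 2 of the 6, against 39.7% of all genes. The median log2 fold change was 0.076 for the 6 members and 0.016 for all genes tested.

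Markers of other cell types moved with treatment in part. Summed over each list, the levels overlapped between control and BAL101553 libraries for 12 microglia and macrophage genes (5.65 to 11.3 and 5.10 to 8.13 CPM), 5 neuron genes (26.6 to 74.3 and 10.2 to 34.2 CPM) and 6 oligodendrocyte genes (18.7 to 20.6 and 15.3 to 18.9 CPM). Single genes of these lists stood apart. The microglial receptor gene *P2ry12* fell from 1.74 to 0.463 CPM (log2 fold change -1.88, adjusted p = 0.0313). It was the 1 gene called of 5 tested microglia and macrophage genes, and the others did not share a clear fall. *Csf1r* had 0.387 CPM in control and 0.602 CPM after BAL101553, without overlap. *Cd68* (4.05 and 3.97 CPM), *C1qa* and *C1qb* overlapped between the groups. None of 4 oligodendrocyte and 3 neuron genes tested was called. The sum of 6 dendritic cell genes was 2.54 to 2.86 CPM in control and 3.36 to 3.56 CPM in BAL101553 libraries, with 0 of 3 tested genes called.

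The sums of 8 astrocyte genes (940.1 to 972 and 681 to 797 CPM) and 5 endothelial genes (736 to 861 and 516 to 645 CPM) were lower in all BAL101553 libraries. *Gja1*, which fell from 911 to 702 CPM (log2 fold change -0.37, adjusted p = 0.0363), and *Cdh5*, which fell from 764 to 530.2 CPM (-0.52, adjusted p = 0.0195), made up most of these sums. Of the other astrocyte genes, *Slc1a3* rose from 0.635 to 1.89 CPM (1.57, adjusted p = 0.0403), *Aldh1l1* had 39.8 and 25.1 CPM (adjusted p = 0.0508) and *Aldoc* 6.67 and 10.6 CPM (adjusted p = 0.264), while *Slc1a2*, *S100b*, *Gfap* and *Aqp4* reached at most 1.61 CPM in any SB28 library. Of the other endothelial genes, *Flt1* lay between 24.03 and 70.6 CPM, and *Kdr*, *Cldn5* and *Pecam1* reached at most 3.28 CPM. The part of these cells in the members' values was not tested.

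Of the PD-1 ligands, *Cd274* had 3.28, 5.46 and 6.31 CPM in control libraries 1, 2 and 3, and 5.30, 8.84 and 7.57 CPM in BAL101553 libraries 1, 2 and 3. The means were 5.02 ± 1.57 and 7.24 ± 1.79 CPM (SD, n = 3), and the groups overlapped, since BAL101553 1 lay below 2 of the control libraries. The log2 fold change was 0.53 (standard error 0.29, 95% interval -0.14 to 1.2, adjusted p = 0.234). It was 0.30 without control 1, the lowest library, and 0.73 without control 3. *Pdcd1lg2* rested on 5, 4 and 8 reads in the control and 12, 2 and 7 reads in the BAL101553 libraries, was too low to be tested with the other genes, and had 0.238 ± 0.0933 and 0.232 ± 0.167 CPM (SD, n = 3). A difference in PD-L2 transcripts was not detectable at this depth.

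Of the ligands of CD28 and CTLA-4, *Cd80* had 1.17, 2.92 and 2.53 CPM in the control and 2.60, 2.96 and 5.68 CPM in the BAL101553 libraries. BAL101553 3 stood above the other 5, which lay close together except for control 1. The log2 fold change was 0.77 (standard error 0.42, 95% interval -0.20 to 1.74, adjusted p = 0.234), and it was 0.34 without BAL101553 3 and 1.01 without control 2. *Cd86* had 1 read in control 1 and 0 reads in the other 5 SB28 libraries. *Cd80* was therefore the one transcript of the pair detected in SB28 cells beyond the limit of 3 counts.

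*Cd276* had 132, 151 and 139 CPM in the control and 120, 108 and 115 CPM in the BAL101553 libraries. All 3 BAL101553 libraries lay below all 3 control libraries. The means were 140.5 ± 9.62 and 115 ± 6.23 CPM (SD, n = 3), and the log2 fold change of -0.29 had the smallest standard error of the members, 0.087 (95% interval -0.49 to -0.087, adjusted p = 0.0615). This did not pass the threshold in edgeR, but did in DESeq2 (adjusted p = 0.0235) and with all 9 libraries in one model (adjusted p = 0.0449).

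*Pvr* had 252, 152 and 206 CPM in the control and 164, 169 and 115 CPM in the BAL101553 libraries. The groups overlapped, because control 2 lay among the BAL101553 libraries, and the log2 fold change was -0.44 (standard error 0.21, 95% interval -0.93 to 0.047, adjusted p = 0.183). It was -0.26 without control 1 and -0.28 without BAL101553 3, the highest and the lowest library. *Nt5e* had 54.7, 65.3 and 71.4 CPM in the control and 79.7, 40.4 and 52.0 CPM in the BAL101553 libraries. The *Nt5e* libraries after BAL101553 thus bracketed all control libraries, and the log2 fold change of -0.15 (standard error 0.23, 95% interval -0.68 to 0.38, adjusted p = 0.679) was 0.045 without BAL101553 2.

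*Cd47* had 49.9, 59.4 and 60.3 CPM in the control and 83.1, 61.1 and 63.9 CPM in the BAL101553 libraries. The groups did not overlap, but the lowest BAL101553 library lay just above the highest control library, and BAL101553 1 stood above the rest. The log2 fold change was 0.30 (standard error 0.14, 95% interval -0.019 to 0.62, adjusted p = 0.168), and 0.15 without BAL101553 1. For none of the 6 members does the adjusted p show that the groups are alike, and the intervals of *Cd274* and *Cd80* include a rise of more than 2-fold.

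**Figure D3:**
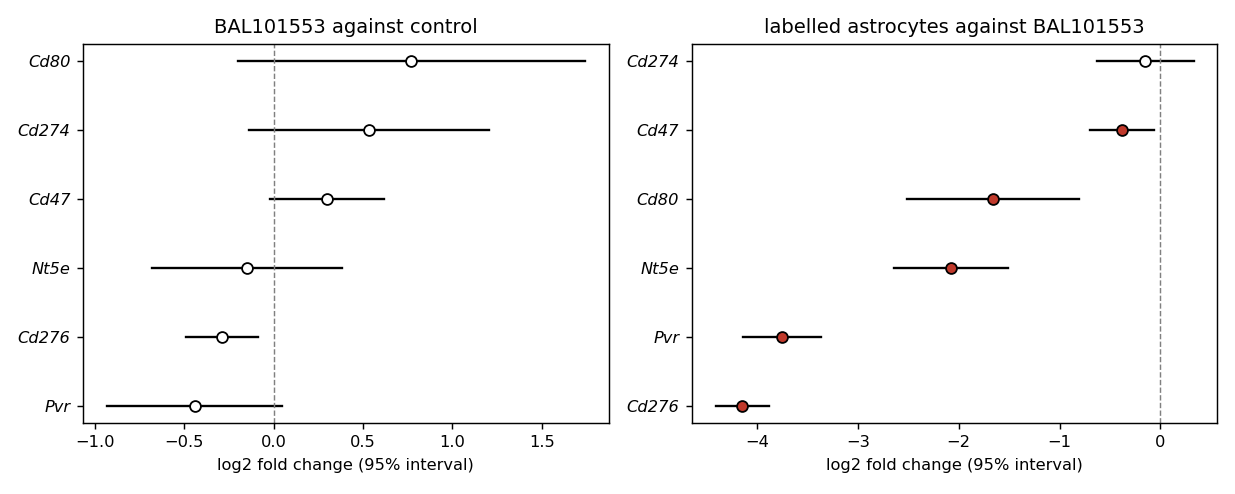
Log2 fold change of each tested member (points) with its 95% interval (lines) from edgeR's quasi-likelihood fit, BAL101553 against control on the left and astrocytes against BAL101553 on the right, filled red where the adjusted p is under 0.05. All 6 points on the left lie between -0.44 and 0.77 and none is filled, while on the right *Cd276* lies at -4.15 and *Pvr* at -3.75. *Cd86* is left out on the right because the BAL101553 libraries hold 0 reads of it.

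The second comparison set the libraries labelled astrocytes against the BAL101553 libraries, which carry the same treatment label. It shares the BAL101553 libraries with the first comparison. *Cd276*, *Pvr*, *Nt5e*, *Cd80* and *Cd47* were lower in the astrocyte libraries, and *Cd86* was higher. Of all genes, 13039 of 15314 had an adjusted p under 0.05 (85.1%), so that 6 of 7 tested members is near the share over all genes. By direction, 1 of 7 members was higher and 5 were lower, against 46.3% and 38.9% of all genes. The median log2 fold change was -1.66 for the 7 members and 0.18 for all genes tested.

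B7-H3 and CD155 transcripts had the largest differences among the members with reads in both groups. *Cd276* had 7.21, 5.93 and 6.00 CPM in astrocyte libraries 1, 2 and 3, a mean of 6.38 ± 0.720 CPM (SD, n = 3), which was 17.7-fold lower than in the BAL101553 libraries (log2 fold change -4.15, standard error 0.11, adjusted p = 3.09e-08). *Pvr* had 10.4, 10.3 and 12.1 CPM and was 13.5-fold lower (log2 fold change -3.75, standard error 0.17, adjusted p = 3.07e-07). Neither gene's astrocyte libraries came near any SB28 library.

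*Nt5e*, the enzyme of adenosine production, had 12.8, 14.3 and 13.1 CPM in the astrocyte libraries and was 4.23-fold lower than after BAL101553 (log2 fold change -2.08, standard error 0.24, adjusted p = 7.08e-05). *Cd80* had 0.986, 1.48 and 1.06 CPM, and its log2 fold change was -1.66 (standard error 0.37, adjusted p = 0.00298). The astrocyte libraries for *Cd80* lay below all BAL101553 libraries but overlapped the control libraries, among which control 1 had 1.17 CPM.

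*Cd86* showed the opposite direction to *Cd80*. It had 115, 237 and 159 reads in astrocyte libraries 1, 2 and 3 (3.54, 8.17 and 6.00 CPM) and 0 reads in the 3 BAL101553 libraries (adjusted p = 5.00e-05). Set against a limit of 3 counts over the BAL101553 group, even the lowest astrocyte library was at least 105-fold higher. Per length of exon, *Cd86* exceeded *Cd80* by 3.63, 5.57 and 5.74 times in astrocyte libraries 1, 2 and 3, whereas in SB28 cells the ratio was 0.0389 in control 1 and 0 in the other libraries. The 12 microglia and macrophage markers moved with it. All 12 were highest in astrocyte library 2 and lowest in library 1, as was *Cd86*, with *Csf1r*, the receptor of a macrophage growth factor, at 160, 331 and 233 CPM. *Cd80* and *Nt5e* had the same order with small differences, on 28 to 43 reads for *Cd80* and at 12.8 to 14.3 CPM for *Nt5e*. The share of all genes with this order was not counted, so the shared order is a description only. Markers of dendritic cells (6 genes) summed to 5.67 to 6.42 CPM in the astrocyte libraries, against 2.54 to 3.56 CPM in SB28 cells. *Zbtb46* (mean 2.82 CPM) and *Flt3* (1.52 CPM) made up most of the astrocyte sum. Against the BAL101553 libraries, 3 of 4 tested were higher and 1 lower, and *Batf3* had 0.512 CPM against 1.35 CPM. The 5 T cell markers in the table summed to 1.11 to 2.17 CPM in the astrocyte libraries, nearly all of it *Cd4* (1.05 to 1.93 CPM). *Cd3d*, *Cd3e* and *Cd8a* had 4 reads each over the 3 astrocyte libraries and *Cd3g* had 0. All 5 were at 0 in the BAL101553 libraries. The 4 B cell markers summed to 1.17 to 1.89 CPM. The part of these cells in the level of *Cd86* was not tested.

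*Cd274* was similar in the astrocyte and BAL101553 libraries. It had 6.57, 6.62 and 6.11 CPM in the astrocyte libraries, a mean of 6.43 ± 0.278 CPM (SD, n = 3), inside the range of the BAL101553 libraries. The log2 fold change was -0.15 (standard error 0.21, 95% interval -0.63 to 0.33, adjusted p = 0.510). Its neighbor *Pdcd1lg2* had 0, 1 and 1 reads in the astrocyte libraries, 2 reads in all against 21 in the BAL101553 libraries. The ratio of CPM was 10.4 (2.55 to 91.7, exact 95% Poisson interval, counting error only) in favor of BAL101553, and the gene was too low for the test across genes. With the filter lowered to at least 1 count in any library it was tested and was lower in the astrocyte libraries (log2 fold change -3.15, adjusted p = 0.0137).

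*Cd47* had 56.3, 54.6 and 47.4 CPM in the astrocyte libraries and was 1.3-fold lower than after BAL101553 (log2 fold change -0.38, standard error 0.14, 95% interval -0.70 to -0.061, adjusted p = 0.0307). The groups did not overlap, whereas astrocyte libraries 1 and 2 lay among the control libraries and library 3 below them. The call was lost without BAL101553 1 (log2 fold change -0.25, adjusted p = 0.0579), without astrocytes 2 (-0.40, adjusted p = 0.0601) and without astrocytes 3 (-0.30, adjusted p = 0.117), and under library totals (-0.18, adjusted p = 0.232). Library totals moved the median of all genes up by 0.20. A change of scaling shifts all genes by nearly the same amount. The value of *Cd47* relative to that median, -0.56 with either scaling, therefore follows from the subtraction and adds nothing to the call.

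The lymphocyte receptors of these ligands had few reads in the SB28 libraries, *Tigit* apart. *Pdcd1* (PD-1), *Ctla4* and *Cd226* had 0 reads in all 6, *Cd96* had 1 read in the control group and 0 after BAL101553, and *Cd28* had 5 and 4 reads. In the astrocyte group these genes, in the same order, had 6, 1, 3, 1 and 24 reads over the 3 libraries. Of the 10 receptors listed, 5 could be tested, and 2 were called after BAL101553, against 14.7% of all genes tested. Both had few reads in 1 group. *Adora1* had 10 to 23 reads in a BAL101553 library, and *Adora2b* had 13 to 23 reads in a control library. *Adora1*, an adenosine receptor that lowers cyclic AMP, fell from 2.18 ± 0.677 to 0.597 ± 0.176 CPM (SD, n = 3; log2 fold change -1.84, standard error 0.38, adjusted p = 0.0218). *Adora2b*, an adenosine receptor that raises cyclic AMP, rose from 0.667 ± 0.178 to 2.85 ± 1.63 CPM (SD, n = 3; log2 fold change 2.08, standard error 0.46, adjusted p = 0.0267), with the highest value, 4.73 CPM, in BAL101553 2. These adenosine receptors thus differed in opposite directions while *Nt5e* did not pass the test. *Sirpa*, the receptor of CD47, had means of 64.5 and 74.2 CPM in the control and BAL101553 groups, *Adora2a* 5.78 and 4.70 CPM and *Tigit* 1.63 and 1.28 CPM, none of them called.

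The 4 further lists of pathway genes gave few calls after BAL101553. None of the 10 tested of 19 other checkpoint and costimulatory ligands was called (median log2 fold change -0.15), nor any of 8 tested of 11 adenosine pathway genes (median -0.053). Of 18 genes listed under PD-L1 control, 3 rose and 0 fell (median 0.084), which is a share near the 14.7% over all genes. An action of each of them on PD-L1 was not tested. They were *Ifngr1*, a subunit of the interferon-γ receptor (49.4 to 64.5 CPM, log2 fold change 0.39, adjusted p = 0.0311), the kinase *Jak2* (43.9 to 55.6 CPM, 0.34, adjusted p = 0.0330), and *Cmtm4*, which stabilizes PD-L1 protein (41.5 to 61.8 CPM, 0.58, adjusted p = 0.0358). *Irf1*, a transcription factor of the interferon-γ response, had a log2 fold change of 0.37 and was not called. Of 9 partners of CD47, *Thbs1*, which encodes the CD47 ligand thrombospondin-1, was the one called and fell from 1734 to 1172 CPM (log2 fold change -0.56, adjusted p = 0.0160).

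**Figure D4:**
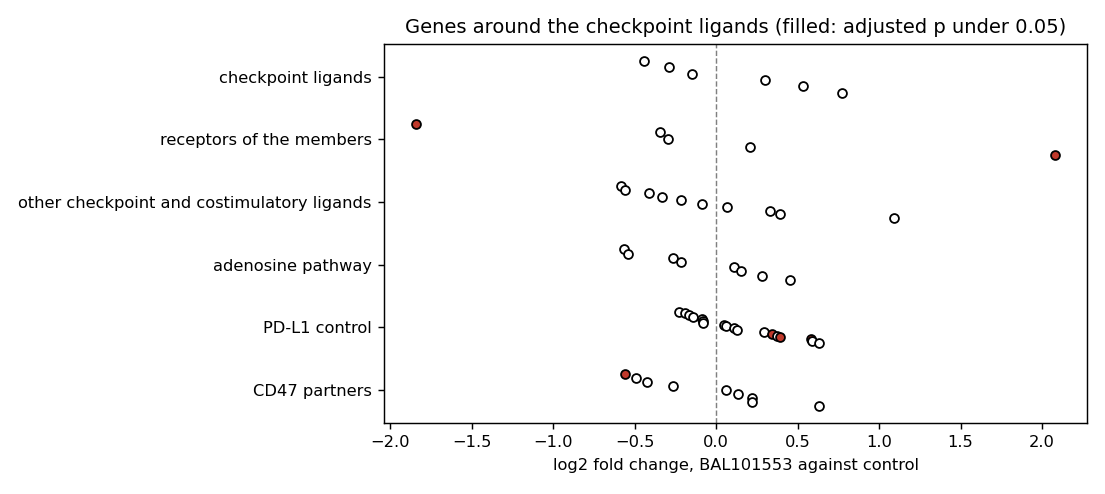
Log2 fold change of BAL101553 against control for the tested members and for the tested genes of 5 lists of receptors, other ligands, adenosine genes, PD-L1 control genes and CD47 partners, 1 point per gene, filled where the adjusted p is under 0.05. No member is filled, and the filled points include *Adora2b* at 2.08 and *Adora1* at -1.84.

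Against the BAL101553 libraries, most genes of these lists were called in the libraries labelled astrocytes. So were 85.1% of all genes tested, with 46.3% higher and 38.9% lower. Of 5 tested receptors, 4 were higher and 1 lower. *Sirpa* had 418 CPM in the astrocyte and 74.2 CPM in the BAL101553 libraries (log2 fold change 2.5, adjusted p = 3.80e-05), and *Adora1* 167 and 0.597 CPM (8.11, adjusted p = 1.21e-08). *Adora2a* (1.42, adjusted p = 0.000815) and *Adora2b* (3.46, adjusted p = 2.59e-05) were also higher, and *Tigit*, with 2 reads in all astrocyte libraries, was lower (adjusted p = 1.57e-05). So *Sirpa* was higher, while its ligand *Cd47* was slightly lower against the BAL101553 libraries. That *Cd47* difference was called under 8 of the 15 alternatives, and not against the control libraries (log2 fold change -0.093, adjusted p = 0.401).

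Of 14 tested other ligands, 9 were higher and 4 lower, among them the ICOS ligand *Icosl* (26.4 and 0.308 CPM in the astrocyte and BAL101553 libraries, log2 fold change 6.47), *Ceacam1* (6.00, on at most 5 reads in a BAL101553 library), *Tnfrsf14* (0.832 CPM, against 1 read in the BAL101553 group) and the galectin *Lgals3* (14.7 and 340.4 CPM, -4.52). Of 11 adenosine pathway genes, 7 were higher and 4 lower. *Entpd2*, an ectonucleotidase that acts on ATP, had 104 CPM in the astrocyte libraries against 3 reads in the BAL101553 group, and *Alpl*, a phosphatase that can also make adenosine from AMP, had 56.6 CPM against 5 reads. *Dpp4* (2.06 CPM against 3 reads) was higher and the nucleoside transporter *Slc29a1* (18.3 and 119 CPM, -2.69) lower. The ectoenzyme genes *Enpp1* (32.3 and 68.2 CPM, -1.06, adjusted p = 0.0016) and *Cd38* (38.5 and 60.8 CPM, -0.64, adjusted p = 0.000327) were lower as well, so that ectoenzymes of nucleotide breakdown differed in both directions beside lower *Nt5e*.

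Of the 18 PD-L1 control genes, 13 were lower and 3 higher in the astrocyte libraries, with a median log2 fold change of -1.09. Of all genes tested, 38.9% were lower and 46.3% higher, with a median of 0.18. The largest were *Myc* (6.97 and 274 CPM, -5.27, with 547 CPM in BAL101553 2), the MHC class I activator *Nlrc5* (3.82 and 52.4 CPM, -3.76), the interferon-γ receptor subunit *Ifngr2* (14.7 and 155 CPM, -3.38) and *Socs1* (1.08 and 7.62 CPM, -2.80). *Cd274* itself, at -0.15, was not called in this comparison. Of 9 CD47 partners, 6 were lower and 2 higher, led by *Thbs1* (22.5 and 1172 CPM, -5.69), *Thbs2* (44.8 and 1226 CPM, -4.76), *Ptpn6*, the phosphatase SHP-1 (10.9 and 0.903 CPM, 3.56) and *Itgb3* (7.91 and 82.5 CPM, -3.37).

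The genes most like each member over the 9 libraries were found by Pearson's r of log2(CPM + 1) among 13650 genes, as a description without a test, since the libraries share the split between SB28 and astrocyte material. *Cd276* was most like *Cks1b* and *Tes* (r = 0.999 for both), *Pvr* like the pyruvate kinase gene *Pkm* (0.999) and *Gtf2e2* (0.998), and *Nt5e* like *Asb6* (0.997) and *Exosc9* (0.995). *Cd86* was most like *Capn3* (0.9998) and *Clec10a*, a lectin gene of myeloid cells (0.9997). For members with small group differences the highest values were lower, namely 0.946 with *Cmpk2*, an interferon-inducible gene, and 0.928 with *Zcchc8* for *Cd274*, and 0.956 with *Clcn7* and 0.926 with *5330426P16Rik* for *Cd47*. *Cd80* was most like *Rabep2* (0.970) and *Tert*, which encodes telomerase (0.961).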

How the data were processed

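RNA was sequenced by the authors from stranded libraries with short reads. Per the submitters' processing notes, reads were mapped with TopHat to mm10 (GRCm38) and counted with HTSeq 0.6.1, and the Methods also name featureCounts. The values the authors deposited are raw counts of reads on each gene. The annotation, strand setting and treatment of reads shared between genes are not given in the sources used here, and can lower or merge the counts of overlapping genes. In 27 rows the gene name had become a date (at most 0.440% of a library's counts).

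The counts were compared with edgeR 4.0.16 in R 4.3.3, using filterByExpr, TMM and the two-sided quasi-likelihood test. Adjusted p-values are Benjamini-Hochberg values over every gene in the fit, read at 0.05. Each fit held only the 2 groups compared, each of 3 libraries. Each standard error was taken as the size of the log2 fold change over the root of its F value. Levels per length used exon lengths from GENCODE vM21. Alternatives used DESeq2 1.42.0, limma 3.58.1 (prior count 2), other scalings, filters and samples. The tests were tested on simulated data in which 200 genes changed 2-fold. With edgeR, 69.5% of these were recovered for the first comparison, with 8 false calls. For the second, 71.5% were recovered, with 15 false calls. Smaller changes, and changes in as many genes as were called in the second comparison, were not simulated. Groups came from the sample labels. The members, gene lists and tests were chosen with earlier results of these data known. All members and all receptors were named. In each other list, up to 4 called genes with the largest change and no overlap between groups were named. Genes outside this rule, such as *Irf1*, *Enpp1*, *Cd38* and the cell type markers, were chosen after their values were seen. For likeness, 2 genes per member with a mean of at least 1 CPM were named. A gene of the lists is not reported here by name.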

Additional observations from a re-analysis of the deposited data

How the results depend on the processing

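For BAL101553 against control, the count of genes called moved from 1860 to 2832 in DESeq2 and to 3022 with all 9 libraries in one model, and it lay between 193 (without control 3) and 1712 (without BAL101553 2) with 1 library left out. The number of members called was 0, and 1 in DESeq2 and with all 9 libraries, *Cd276* in both, whose adjusted p ranged from 0.0235 to 0.176 over the alternatives while it was lower in all 14 of them. *Nt5e* changed sign without BAL101553 2, its log2 fold change lying between -0.46 and 0.045 with 1 library left out. For astrocytes against BAL101553, the members called numbered 4 to 7 over the alternatives, against 6, the seventh being *Pdcd1lg2* with the lowest filter. *Cd274*, not called there, changed sign with library totals (0.052), with at least 10 counts in every library (0.075) and with the control libraries as reference (0.36). *Cd47* was called under 8 of the 15 alternatives. Besides the 3 libraries and the library totals named with its result, it was lost with RLE scaling (log2 fold change -0.33, adjusted p = 0.0514), at least 10 counts in every library (-0.15, adjusted p = 0.314) and the control reference (-0.093, adjusted p = 0.401). The cause was not tested. The replicate numbers were not taken to pair the libraries. The correlations of deviations at the same number were 0.152, -0.0223 and 0.156 in the first comparison, against -0.215 to 0.102 at unlike numbers. In the second comparison they were -0.0029, 0.0553 and 0.0610, against -0.0735 to 0.00999 at unlike numbers. These values do not settle whether the libraries were paired. With the replicate number as a block, 1371 genes and 0 members were called in the first and 12815 genes and 6 members in the second. Depth limits comparisons of *Pdcd1lg2*, which rests on 2 to 12 reads in each SB28 library. For *Cd86* in SB28 cells and *Pdcd1lg2* in the astrocyte libraries, at 0 or 1 read in each, low levels cannot be told from absence.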
